A study of Mus musculus with 8 samples.

Results

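The genes described here encode the microtubule-associated proteins (MAPs) Map1a, Map1b, Map2, Map4 and Map6 and the stathmins Stmn1, Stmn2, Stmn3 and Stmn4. They were chosen by their gene symbols in the deposited table of the whole mouse brain, so that the 9 members of this set are 9 of 24343 genes listed there, and each of them was found. The samples came from whole brains of 3 C57BL/6NCrl mice 56 to 62 days of age, kept on a light and dark cycle, with no treatment or genetic change and therefore a single condition. There were 3 bulk RNA-seq libraries from mouse 1 (m1 in the labels), 3 from mouse 2 (m2) and 2 from mouse 3 (m3), 8 in all. What distinguishes the libraries of a mouse was not stated, and neither was the sex of the mice. The p-values below measure only the spread between libraries of these 3 mice.

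Microtubules are hollow polymers of α- and β-tubulin that give axons and dendrites their shape and serve as tracks for motor proteins. Structural MAPs bind along the microtubule lattice and stabilise or space the polymers, and in neurons they are divided between compartments, with MAP2 a standard marker of dendrites and cell bodies. Stathmins act on the other side of the balance, since they bind free tubulin heterodimers, keep them out of the polymer and promote the switch from growth to shrinkage. Phosphorylation weakens the hold of both kinds of protein on their partners.

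The coding sequences of the 4 stathmins share stretches that their tubulin-binding domain has in common. The following 60 bases, each inside a single exon, could let reads of 1 stathmin resemble those of another, which is why they are shown. This stretch was picked for having the most bases shared by all 4 genes, so the other stretches compared were no more alike. Capitals mark the 41 bases (68.3%) that are the same in all 4 genes. They come from the GENCODE annotation of GRCm38, at chr4:134472858-134472917 on the plus strand for Stmn1, chr3:8554846-8554905 on the plus strand for Stmn2, chr2:181307294-181307353 on the minus strand for Stmn3 and chr14:66357900-66357959 on the plus strand for Stmn4.
Stmn1: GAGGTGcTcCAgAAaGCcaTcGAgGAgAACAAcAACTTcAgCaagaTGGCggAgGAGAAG
Stmn2: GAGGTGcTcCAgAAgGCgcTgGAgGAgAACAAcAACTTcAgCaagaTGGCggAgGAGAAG
Stmn3: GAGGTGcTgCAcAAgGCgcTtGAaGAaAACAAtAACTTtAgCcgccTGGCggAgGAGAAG
Stmn4: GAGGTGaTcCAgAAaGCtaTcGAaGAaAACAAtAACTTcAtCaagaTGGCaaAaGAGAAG
Stmn1 and Stmn2 have 56 of the 60 bases in common (93.3%), and Stmn3 and Stmn4, the least alike pair, have 44 (73.3%). Despite this likeness no run of 50 bases was the same in any of the 36 pairs of members, compared over their annotated transcripts.

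The table separates 2 transcripts of Map2, and they differ by a single coding exon that adds a further microtubule-binding repeat. This exon, 93 bases at chr1:66431527-66431619 on GRCm38, is shown with the exon of the same length in Map4, at chr9:110072613-110072705, because the levels of the Map2 transcripts given below turn on it; capitals mark the 59 positions (63.4%) at which the 2 exons have the same base.
Map2: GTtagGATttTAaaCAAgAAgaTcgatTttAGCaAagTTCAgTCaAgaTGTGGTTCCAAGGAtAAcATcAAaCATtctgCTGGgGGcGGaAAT
Map4: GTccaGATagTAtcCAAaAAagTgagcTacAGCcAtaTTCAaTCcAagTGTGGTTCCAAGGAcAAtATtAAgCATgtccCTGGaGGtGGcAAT
In both genes the next exons downstream have 82 and 113 bases. The Map4 exon was found by searching for this run of 93, 82 and 113 bases, so the like lengths are how it was chosen. Map2 and Map4 share this run in the part of the gene that encodes the microtubule-binding repeats.

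The values are FPKM, sequenced fragments scaled by the authors for the length of the transcript and the size of the library, and were summed over the transcripts of a gene. FPKM is a level per transcript length, so that members can be set beside each other. The bases read on transcripts came to 1.31 to 2.02 gigabases per library (median 1.76), and the member with the fewest, Map6, was covered by 0.158 to 0.248 megabases per library. Markers of neurons, astrocytes, oligodendrocytes, microglia and endothelium were all present at 1 FPKM or more, whereas Alb, Myh6, Myh1 and Ins2, markers of tissues outside the brain, were all below it and came to 0.123 to 0.774 FPKM in sum. The libraries of mouse 3 stood apart from the others. Their markers of oligodendrocytes and astrocytes were higher, and their values followed transcript length, in library 2 more than in library 1. Among genes with the shortest transcripts (median 1085 nucleotides) the median deviation from the mean of the 8 libraries, on the log2(FPKM + 1) scale, was 0.42 in library 2 and 0.20 in library 1 of mouse 3, and it was −0.34 in library 1 of mouse 2, which deviated in the opposite direction. Results that rest on these libraries are therefore given with and without them. Leaving out either library of mouse 3 leaves that mouse a single library, and such a fit does not measure the spread within mouse 3.

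All members were well expressed, and stathmins held most of their summed FPKM. Stmn1, the cytosolic stathmin, was the highest at 421 ± 103 FPKM (mean ± SD between mice, n = 3 mice here and below), which is rank 88 among all genes of the table. It was followed by Stmn3 with 270 ± 68.7 FPKM (rank 177) and Stmn2 with 167 ± 6.18 FPKM (rank 309), which with Stmn4 are stathmins anchored to membranes of the Golgi apparatus and of transport vesicles. Map2 had 129 ± 7.20 FPKM, Map4 127 ± 20.3 FPKM, Stmn4 111 ± 3.44 FPKM, Map1a 94.2 ± 3.86 FPKM and Map1b 89.7 ± 24.7 FPKM. Map6 was the lowest with 26.9 ± 2.15 FPKM and rank 2521. The 4 stathmins held 67.1% ± 3.89 of the summed FPKM of the 9 members, with mouse means of 66.5% (mouse 1), 63.5% (mouse 2) and 71.2% (mouse 3), and their sum was 2.09 ± 0.394 times that of the 5 MAPs. Stmn1 alone made up 43.2% ± 2.56 of the stathmin sum. The bases read, which grow with transcript length, gave another order. Their median per library was 2.45, 2.22, 1.45 and 1.12 megabases for Map1b, Map1a, Map2 and Map4. It was 0.877 megabases for Stmn1, the highest of the stathmins, and 0.193 megabases for Map6.

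The order of the levels was clear at its ends and unresolved in the middle. Stmn1 exceeded Stmn3 by 1.56 times, Stmn3 exceeded Stmn2 by 1.62 times and Stmn2 exceeded Map2 by 1.29 times, each in 8 of 8 libraries and with mouse means that did not overlap. Map2 and Map4 differed by 1.02 times with overlapping mouse means, as did Map4 and Stmn4 by 1.15 times, so that these neighbours were not separated beyond their spread. Stmn4 exceeded Map1a by 1.18 times in 7 of 8 libraries, with mouse means that did not overlap. Map1a and Map1b differed by 1.05 times on average, yet Map1a was the higher of the pair in 2 of 8 libraries, both of them from mouse 3. The step from Map1b down to Map6 was 3.33 times, in 8 of 8 libraries.

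**Figure D1:**
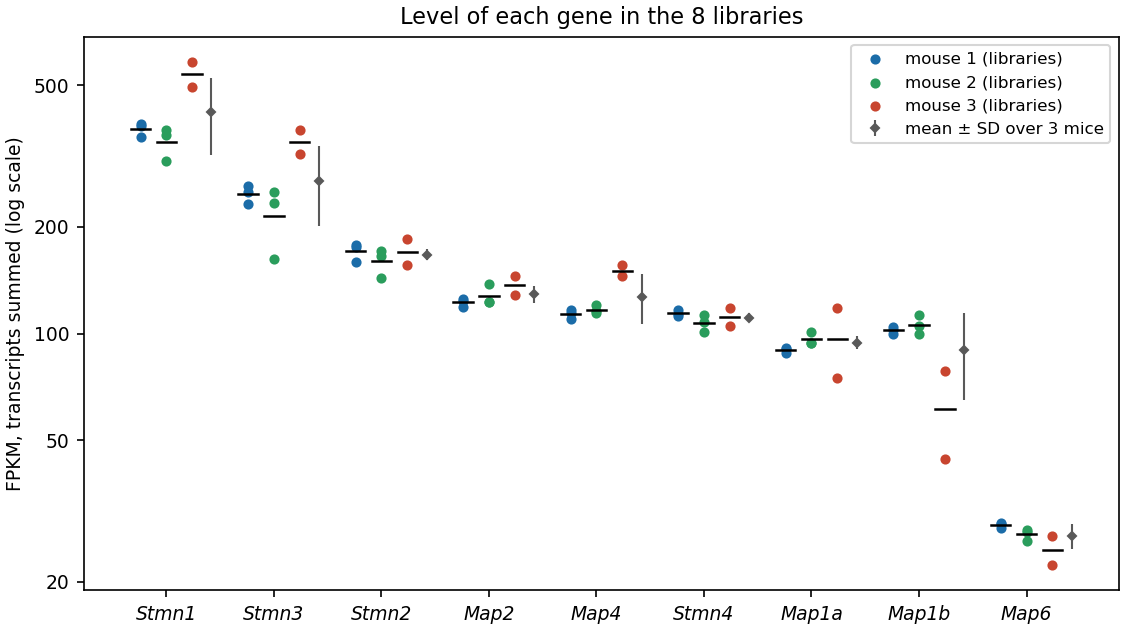
FPKM of each member on a log axis, with 1 point per library coloured by mouse, a black bar at the mean of each mouse, and a grey diamond with bars for the mean ± SD over the 3 mice. Both libraries of mouse 3 lie above all others for Stmn1, Stmn3 and Map4 and below all others for Map1b, whereas the mice overlap for the other members.

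The means of the mice lay closer together for some members than for others. Stmn4, Stmn2, Map1a, Map2 and Map6 varied by 3.10% to 8.01% between mice (coefficient of variation), and Map4, Stmn1, Stmn3 and Map1b by 16.0% to 27.6%. The low value of Map1a comes from averaging 2 unlike libraries of mouse 3. Between its highest and lowest libraries Map1a ranged by 1.57 times, more than Map4 with 1.42 times. To ask whether the mice differed, the moderated F-test of limma was applied to log2(FPKM + 1) of the 13001 genes whose mean reached 1 FPKM, a minimum that all 9 members passed, with Benjamini-Hochberg adjustment over those genes and a threshold of 0.05. It called 4 of the 9 members, Map1b, Map4, Stmn1 and Stmn3, against 25.5% of all genes tested. It called 2 members when any 1 library of mouse 1 or library 2 of mouse 2 was left out, and 0 without library 2 of mouse 3. A contrast of mouse 3 with the mean of mice 1 and 2 was chosen because earlier results of these data had set mouse 3 apart. Its p-values are therefore not those of a comparison fixed beforehand. The contrast called the same 4 members, against 37.9% of all genes. They divided into 3 that were higher in mouse 3 (Map4, Stmn1 and Stmn3, against 20.4% of all genes) and 1 that was lower (Map1b, against 17.5%). The median difference was 0.016 on the log2 scale for the 5 MAPs, 0.30 for the 4 stathmins and 0.020 for all genes. With the 2 libraries of mouse 3 left out, 0 of 9 members differed between mice 1 and 2, as did 0.0231% of all genes, with adjusted p of 0.881 to 0.917 for the members. All of the called differences therefore rest on the libraries of mouse 3.

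Stmn1, which sequesters tubulin in the cytosol, was measured at 358, 390 and 384 FPKM in mouse 1, at 306, 362 and 374 FPKM in mouse 2, and at 494 and 582 FPKM in mouse 3. Both libraries of mouse 3 were above all others. The difference was 0.57 on the log2 scale (standard error 0.10, limma adjusted p = 0.00519), or 1.48-fold.

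Stmn3, a membrane-anchored stathmin of neurons, had 232, 260 and 251 FPKM in mouse 1, 162, 232 and 250 FPKM in mouse 2, and 320 and 373 FPKM in mouse 3. The libraries of mouse 3 were again the highest, and the first of mouse 2 was far below the other two of that mouse. The difference was 0.60 (standard error 0.16, limma adjusted p = 0.0192), or 1.51-fold.

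Stmn2, the neuronal stathmin linked to axon growth and upkeep, did not follow them. It had 159, 178 and 176 FPKM in mouse 1, 144, 170 and 165 FPKM in mouse 2, and 156 and 184 FPKM in mouse 3. The mice overlapped, and the difference was 0.041 (standard error 0.10, limma adjusted p = 0.770). Stmn4 was as even, with 112, 114 and 116 FPKM in mouse 1, 113, 101 and 108 FPKM in mouse 2, and 105 and 118 FPKM in mouse 3. Its difference was 0.011 (standard error 0.079, limma adjusted p = 0.920).

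Among the MAPs, Map4 rose in mouse 3. Map4 encodes a MAP found in many cell types besides neurons, and it had 110.0, 117 and 114 FPKM in mouse 1, 116, 120.4 and 114 FPKM in mouse 2, and 145 and 156 FPKM in mouse 3. The libraries of mouse 3 were above all others and the other 6 lay close together. The difference was 0.38 (standard error 0.071, limma adjusted p = 0.00564), or 1.30-fold.

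Map1b, which encodes a large MAP prominent in growing axons, was lower in mouse 3. It had 104, 99.9 and 102 FPKM in mouse 1, 113, 105 and 99.6 FPKM in mouse 2, and 78.2 and 44.2 FPKM in mouse 3. Both libraries of mouse 3 were below all others, and they differed from each other by 1.77 times, more than the 1.04 and 1.13 times between the highest and lowest libraries of mice 1 and 2. The difference was −0.81 (standard error 0.18, limma adjusted p = 0.00968).

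Map1a, the related MAP that is prominent in mature dendrites, had 90.9, 88.1 and 90.3 FPKM in mouse 1 and 101, 94.0 and 94.1 FPKM in mouse 2. In mouse 3 it was 118 FPKM in library 1, the highest of all, and 75.0 FPKM in library 2, the lowest of all. Their mean hid a spread of 1.57 times, and the difference of mouse 3 was 0.016 (standard error 0.15, limma adjusted p = 0.939). The direction turned with the library left out. The difference of Map1a was 0.34 without library 2 and −0.31 without library 1, each from a single library of mouse 3.

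Map2, the dendritic MAP, had 125, 123 and 119 FPKM in mouse 1, 138, 122 and 123 FPKM in mouse 2, and 145.5 and 128 FPKM in mouse 3. The mice overlapped, with a difference of 0.13 (standard error 0.084, limma adjusted p = 0.265). Map6, known for keeping microtubules stable in the cold, had 29.0, 28.4 and 29.3 FPKM in mouse 1, 27.5, 26.1 and 27.9 FPKM in mouse 2, and 27.0 and 22.3 FPKM in mouse 3. Library 2 of mouse 3 was the lowest, library 1 lay within the others, and the difference was −0.19 (standard error 0.085, limma adjusted p = 0.116). Without library 1 of mouse 3, which leaves library 2 alone for that mouse, the difference was −0.32.

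Among all genes tested, both libraries of mouse 3 were outside the range of the other 6 for 48.3%, above it for 26.5% and below it for 21.7%, against 4 of 9, 3 of 9 and 1 of 9 members. These counts of members are near what the whole table gave.

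The members differ widely in length, and the differences of mouse 3 ran with it. The highest transcripts of Stmn1, Stmn3 and Stmn4 have 1060, 1136 and 1232 nucleotides and belong to the shortest of 5 equal groups of the genes tested, whose median difference was 0.42 with quartiles of 0.15 and 0.67. Stmn1 and Stmn3 lay within those quartiles, and Stmn4 with its 0.011 lay below them. Stmn2 (1904 nucleotides) lay within the quartiles of the next group, −0.070 and 0.32. Map6 (3431 nucleotides) lay within those of its group, −0.26 and 0.093, and Map4 (3517 nucleotides, 0.38) lay above them. This length of Map4 is that of its highest transcript, which held 54.8% of its FPKM. Longer transcripts of 5556 and 5776 nucleotides held 29.7% and 13.1%, so the placement of Map4 by length is only approximate. Map2, Map1a and Map1b, with 5427, 11539 and 11852 nucleotides, belong to the longest group, whose median was −0.20 with quartiles of −0.37 and −0.026. Map2 and Map1a lay above these quartiles and Map1b below them.

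**Figure D2:**
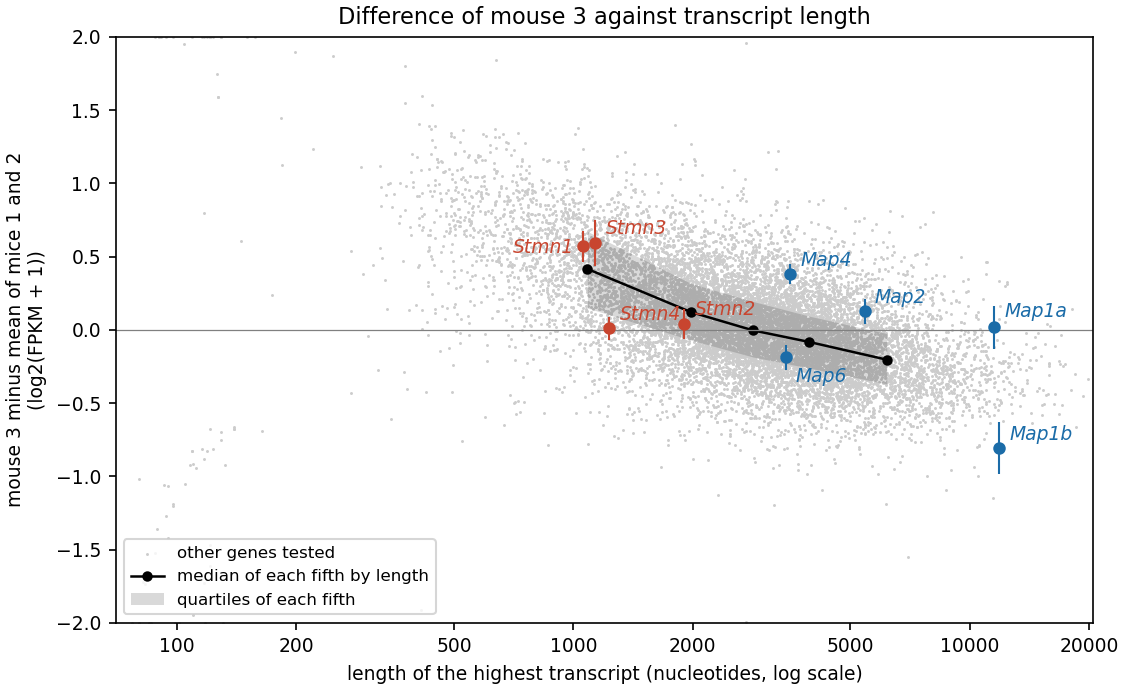
Difference of mouse 3 from the mean of mice 1 and 2 on the log2(FPKM + 1) scale against the length of the highest transcript of each gene on a log axis, for all genes tested (grey, values beyond the axis drawn at its edge) and for stathmins (red) and MAPs (blue) with standard errors. The black line joins the medians of the 5 length groups, which fall from 0.42 to −0.20, and the band shows their quartiles; Stmn1 and Stmn3 lie near the line, Map4, Map2 and Map1a above it, and Map1b and Stmn4 below it.

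When the trend with length was removed from each library, other members were called. The contrast called 5 of 9 against 32% of all genes. Stmn1 fell to 0.15 (adjusted p = 0.0624) and Stmn3 to 0.21 (adjusted p = 0.108), both no longer called in the limma contrast. Map4 kept 0.43 (adjusted p = 0.00315) and Map1b −0.49 (adjusted p = 0.0147). Map1a at 0.33 (adjusted p = 0.0230) and Map2 at 0.28 (adjusted p = 0.0290) were now called higher in mouse 3, and Stmn4 at −0.33 (adjusted p = 0.0382) was called lower. Stmn2 at −0.10 and Map6 at −0.14 were not called. In the F-test with the trend removed 2 members were called, Map1b and Map4, against 20.3% of all genes. The part of length in the differences of single members was not tested beyond this.

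**Figure D3:**
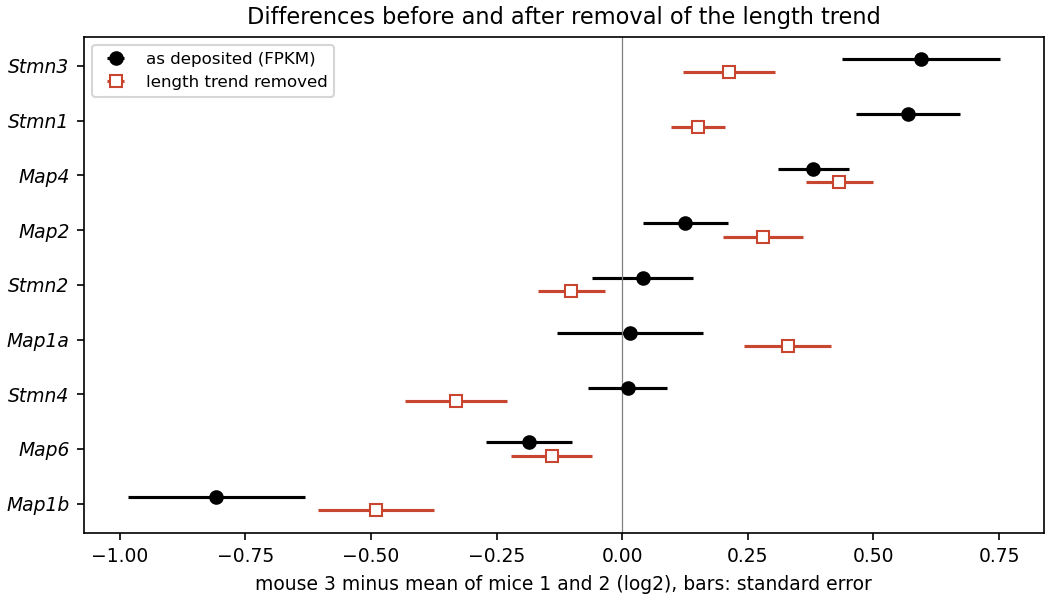
Difference of mouse 3 from the mean of mice 1 and 2 (log2, with standard errors) for each member, from FPKM as deposited (black circles) and after the trend with transcript length was removed from each library (open red squares). Stmn1 and Stmn3 move towards 0, Map1a and Map2 move up to 0.33 and 0.28, Stmn4 moves down to −0.33, and Map4 and Map1b keep their direction.

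Scaling each library to a total of 1000000 (TPM) shifted the median of all genes to −0.26, and of the genes called 1025 were then higher and 5743 lower in mouse 3, in place of 2650 and 2271. Among the members 1 was then called higher (Stmn1, against 7.88% of all genes) and 4 lower (Map1b, Map6, Stmn2 and Stmn4, against 44.2%), while Stmn3 (adjusted p = 0.0798) and Map4 (adjusted p = 0.429) lost their calls. Relative to that median Stmn1 stood at 0.53, Stmn3 at 0.55, Map4 at 0.34, Map6 at −0.23 and Map1b at −0.86, and Stmn2, Stmn4, Map1a and Map2 stood between −0.031 and 0.083. With no minimum level Map1b (adjusted p = 0.0621) and Stmn3 (adjusted p = 0.0952) were no longer called. Both libraries of mouse 3 moved the results when left out. Without library 2 the difference was −0.40 for Map1b, 0.33 for Map4, 0.45 for Stmn1 and 0.49 for Stmn3. The F-test called 0 of 9 members without library 2. Without library 1 the difference was −1.21 for Map1b, 0.43 for Map4, 0.69 for Stmn1 and 0.71 for Stmn3. Each of these members kept its direction in both fits, which hold mouse 3 as a single library.

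Cell type markers also moved with mouse 3. The summed FPKM of Mbp, Mog and Mobp, markers of oligodendrocytes, was 1425, 1463 and 3446 in mice 1, 2 and 3, and all 3 were called higher. That of the astrocyte markers Aqp4, Gfap, Slc1a3 and Gja1 was 335, 339 and 516, and all 4 were called higher. The neuronal markers Snap25, Syt1, Rbfox3 and Tubb3 came to 1618.5, 1538 and 1350, with Syt1 and Rbfox3 called lower. Of the markers of immature neurons, Dcx, Sox11 and Dlx2 were called lower and Igfbpl1 was under the minimum level, with sums of 10.3, 9.79 and 6.35 over the 4 of them. Microglial markers (Cx3cr1, P2ry12, Csf1r and Tmem119) came to 47.9, 46.3 and 52.0, with 1 of 4 called higher, and endothelial markers (Cldn5, Flt1 and Pecam1) to 25.5, 24.8 and 35.3, with 1 of 3 called higher. With the length trend removed, Mog (0.21, adjusted p = 0.0821), Sox11 (−0.041, adjusted p = 0.644) and Cldn5 (0.40, adjusted p = 0.0580) were no longer called, and Tubb3 (−0.32, adjusted p = 0.0165) and Flt1 (0.47, adjusted p = 0.00354) were. In bulk samples fewer cells of a type and less RNA per cell cannot be told apart. The part of these cell types in the differences of Stmn1, Stmn3, Map4 and Map1b was not tested.

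**Figure D4:**
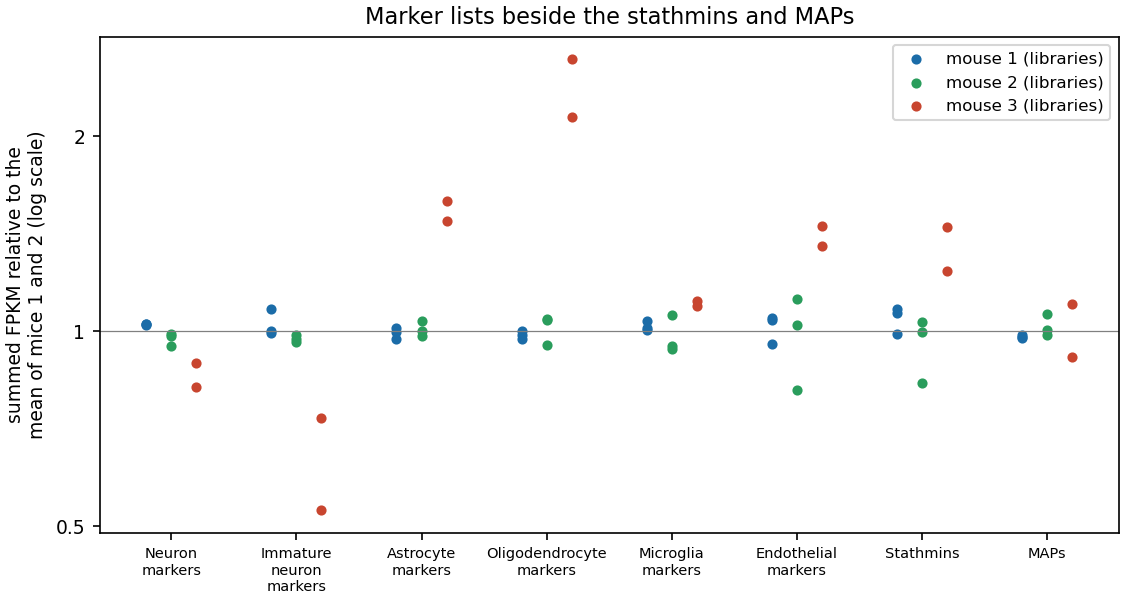
Summed FPKM of each marker list, of the 4 stathmins and of the 5 MAPs in each library, relative to the mean of mice 1 and 2 and on a log axis, coloured by mouse. Mouse 3 is apart upwards for oligodendrocyte, astrocyte, endothelial and, by a small margin, microglial markers and for the stathmins and downwards for both neuronal lists, and its libraries lie on either side of the other mice for the MAPs.

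Correlations between members across the libraries varied widely. The correlation of log2(FPKM + 1) over the 8 libraries, a description in which the points share mice and depth, was positive in 6 of 6 pairs of stathmins (median 0.416, from 0.118 to 0.961) and in 6 of 20 pairs of a MAP with a stathmin (median −0.322, from −0.929 to 0.909). Of the 10 pairs of MAPs 5 were positive (median 0.180, from −0.906 to 0.876). The stathmins have shorter transcripts than the MAPs, and the rate of positive pairs among other genes of like length was not computed. Within each mouse, library 1 had the lowest values of Stmn1, Stmn2 and Stmn3. It also had the fewest bases read on transcripts, 1.59, 1.31 and 1.73 gigabases in mice 1, 2 and 3. The part of depth or library number in this was not tested. In library 1 of mouse 2 Stmn1, Stmn2 and Stmn3 had their lowest values of all (306, 144 and 162 FPKM) and Map1b its highest (113 FPKM). That library held the lowest stathmin share, 59.4%, and library 2 of mouse 3 the highest, 74.7%.

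Single transcripts were read from the same table, in which the authors' estimation divided the fragments of a gene between its transcripts, so that these values are less certain than their sums. Of Map2, the transcript without the 93-base exon, NM_008632, had 115 ± 2.99 FPKM, which was 89.4% ± 2.79 of the gene. The transcript with the exon, NM_001039934, had 13.7 ± 4.23 FPKM and 10.6% ± 2.79, at 8.20% in mouse 1, 9.89% in mouse 2 and 13.6% in mouse 3. Across libraries its share ran from 6.66% to 17.8%, with library 2 of mouse 3 alone at the top and library 1 of that mouse at 9.49%, inside the range of the other mice.

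Both transcripts have short coding sequences, of 1401 and 1494 bases without the stop codon in the GENCODE annotation. They hold none of 3 coding exons of 3741, 207 and 135 bases, the largest at chr1:66412407-66416147, that the longest annotated coding sequence of the gene (5484 bases) contains. This large exon is the part that distinguishes the high-molecular-weight forms of MAP2 from the short forms. The FPKM of Map2 given here was therefore estimated over the exons of the short forms, and how reads of the long forms entered it was not tested.

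Map4 was spread over 4 transcripts, and the shortest of them was the highest. NM_001205331, with 4 exons and 3517 nucleotides, had 69.1 ± 5.38 FPKM, or 54.8% ± 4.31 of the gene. It shares its first 3 exons with the long transcripts and ends in an exon of its own, at chr9:110002746-110005739, in which the coding sequence stops after 5 bases, so that its 297 coding bases do not reach the exons of the microtubule-binding repeats. The long transcripts NM_001205332 and NM_001205330, of 19 exons and 3372 and 3375 coding bases, had 37.9 ± 7.67 FPKM (29.7% ± 1.26) and 17.1 ± 7.07 FPKM (13.1% ± 3.22). The remaining one, NM_008633, had 2.90 ± 0.426 FPKM (2.28% ± 0.270).

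The mean of mouse 3 was above those of the other mice for each of these Map4 transcripts, and for the 2 main long ones both of its libraries were above all others. NM_001205330 had 12.9 FPKM in mouse 1, 13.0 FPKM in mouse 2 and 25.2 FPKM in mouse 3. NM_001205332 had 33.4, 33.5 and 46.7 FPKM. For NM_001205331 and NM_008633 the libraries of mouse 3 overlapped the others. NM_001205331 had 64.9, 67.3 and 75.2 FPKM, and NM_008633 had 2.42, 3.05 and 3.23 FPKM. The share of NM_001205331 was 57.1%, 57.6% and 49.9%. The libraries of mouse 3 had the lowest shares of this short transcript, 47.1% and 52.7%, and the other 6 lay between 56.4% and 59.1%.

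None of these shares passed the test. In limma's F-test of the log2 ratio of a transcript to the rest of its gene, 0 of 11717 transcripts tested were called (percent called 0), and 969 (8.27%) had an unadjusted p under 0.05. Of the 11 member transcripts in that test, 1 had an unadjusted p under 0.05, NM_001043355 of Map6, and the adjusted p of the 11 ran from 0.496 to 0.939. The ratio in mouse 3 minus the others was −0.43 (standard error 0.17) for NM_001205331, 0.62 (0.23) for NM_001205330 and 0.13 (0.15) for NM_001205332 of Map4, and 0.57 (0.29) for NM_001039934 of Map2.

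**Figure D5:**
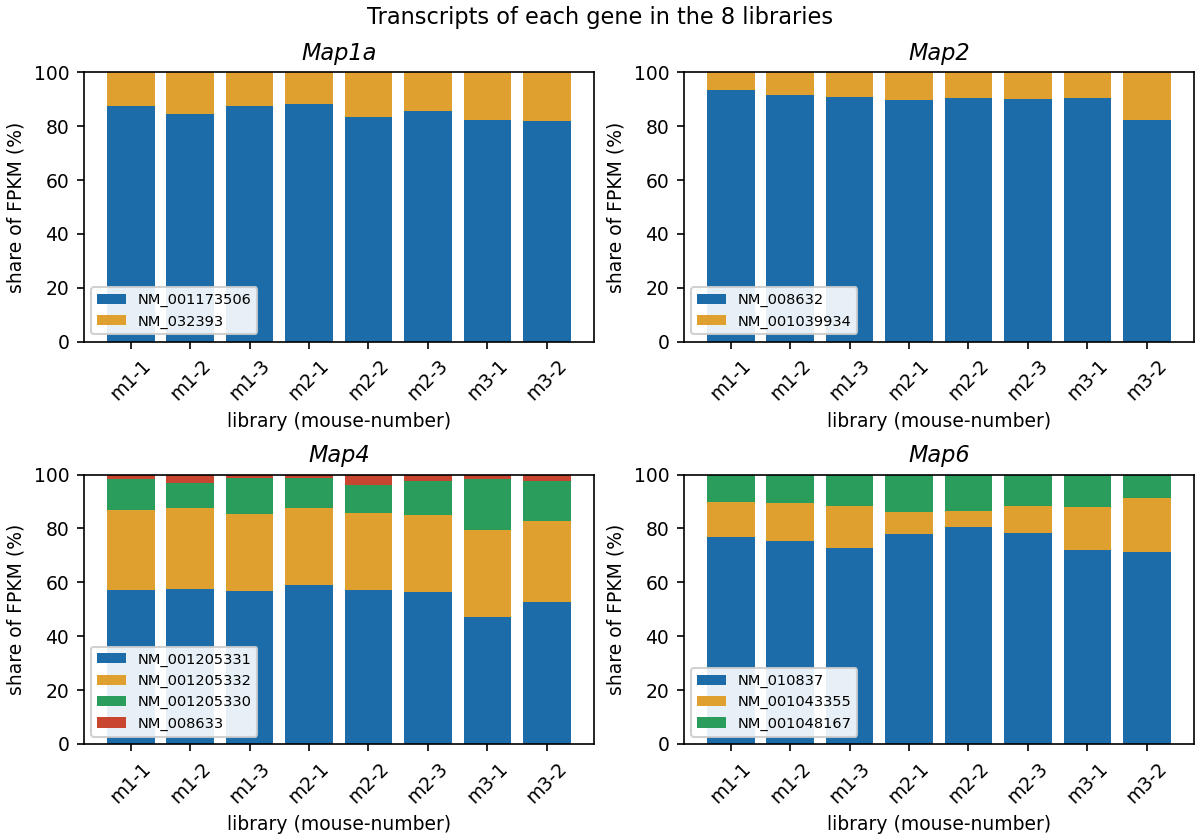
Share of each annotated transcript in the summed FPKM of Map1a, Map2, Map4 and Map6, in percent, as stacked bars for the 8 libraries (mouse, then library number). The transcript NM_001039934 of Map2 reaches 17.8% in library 2 of mouse 3, and NM_001205331 of Map4 falls to 47.1% and 52.7% in the libraries of mouse 3.

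Map1a had 2 transcripts with different first exons. NM_001173506, whose first exon starts at chr2:121295454, made up 84.7% ± 2.39 of the gene, and NM_032393, which starts at chr2:121289602 and has the longer coding sequence (9042 against 8328 bases), made up 15.3% ± 2.39. Both libraries of mouse 3 had the highest shares of the latter, 17.8% and 18.3%, and the adjusted p was 0.687. Of Map6, the longest coding form NM_010837 (2718 bases) made up 75.2% ± 3.76, NM_001043355 (918 bases) 13.4% ± 5.10 and NM_001048167 (1704 bases) 11.4% ± 1.43. Map1b and the 4 stathmins had a single transcript each in the table.

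Other genes that act on microtubules were examined as lists. Of 14 further proteins that bind the lattice, 1 was called higher in mouse 3 (Tppp3), 8 lower (Mapt, Map7, Map7d1, Map7d2, Map9, Dcx, Dclk1 and Nav1) and 5 not, with a median of −0.29, where 20.4% of all genes were called higher and 17.5% lower. Dcx also stands among the markers of immature neurons. Tppp, which promotes tubulin polymerisation and is abundant in oligodendrocytes, had 89.2 ± 0.360 FPKM and a difference of 0.0017, and Dclk1, a doublecortin-like kinase, had 87.5 ± 18.0 FPKM and −0.55 (standard error 0.096, adjusted p = 0.00451). Map9 had the largest difference among those called, with 17.2 ± 4.56 FPKM and −0.69 (standard error 0.082, adjusted p = 0.00188). The levels of Tppp and Dclk1 were thus close to those of Map1a and Map1b.

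Of 11 proteins that act at microtubule ends, 1 was called higher (Mapre1), 9 lower and 1 not, with a median of −0.36. The end-binding proteins Mapre2 and Mapre3 had 62.9 ± 7.38 and 61.5 ± 9.29 FPKM, with differences of −0.30 (adjusted p = 0.0165) and −0.36 (adjusted p = 0.0293). Clasp1, which rescues shrinking microtubules, had the largest difference of those called, −0.55 at 11.8 ± 2.55 FPKM (adjusted p = 0.00643).

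Of 6 severing enzymes 4 passed the minimum level, of which 1 was lower, Spast, the spastin gene (11.0 ± 1.55 FPKM, −0.34, adjusted p = 0.00705), and 3 were not called. Among these was Katnal1, a katanin subunit with 12.7 ± 0.125 FPKM and −0.023. Of 10 kinases that phosphorylate MAPs or stathmins, 6 were lower and 4 not called, with a median of −0.30. Mapk9 and Mapk10, the c-Jun N-terminal kinases with the highest levels on this list, had 49.3 ± 3.78 and 39.5 ± 5.84 FPKM, with −0.19 (adjusted p = 0.0690) and −0.38 (adjusted p = 0.00714). Gsk3b had 28.7 ± 5.07 FPKM and the largest difference of those called, −0.45 (adjusted p = 0.00559). With the length trend removed the calls fell to 6 lower of the 14 lattice-binding proteins, to 1 higher and 5 lower of the 11 end-binding proteins and to 3 lower of the 10 kinases, and Spast kept its call, against 16.1% of all genes higher and 15.9% lower. Mapk10 then stood at −0.16 (adjusted p = 0.0933), Gsk3b at −0.20 (adjusted p = 0.0309), Clasp1 at −0.31 (adjusted p = 0.0104), Dclk1 at −0.34 (adjusted p = 0.00576) and Map9 at −0.50 (adjusted p = 0.00183). Whether the lists differ from the members was not tested.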

How the data were processed

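Bulk RNA-seq of whole brains was analysed from the deposited table of transcripts. The authors deposited FPKM values with confidence bounds, and a coverage signal (read depth per base), for 34535 RefSeq transcripts in each library; TopHat, Cufflinks and mm10 are named in the submitters' processing notes, with no versions. Poly(A) libraries (Kapa mRNA HyperPrep) were made from intact RNA and run on a NextSeq500. The status was FAIL for 8 values of 2 genes, 0 of them members. Read numbers are unknown, so depth is given as bases on transcripts (coverage multiplied by length) and precision as the SD between mice.

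FPKM were summed per gene and averaged per mouse, then over mice. Differences were tested with limma (3.58.1, R 4.3.3) on log2(FPKM + 1) by mouse, in genes whose mean reached 1 FPKM, with Benjamini-Hochberg correction; a fold change on this scale understates that of low genes. Transcript shares were tested as log2((transcript + 1)/(other transcripts + 1)). Trends with length and GC were fitted per library by local regression (span 0.5). The limma tests were tried on simulated data with independent noise and no trend with length. That trial does not bear on calls made where such a trend is present. Exon structures and sequences come from GENCODE on GRCm38, the build of the files.

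All members were named, with, from each list of other microtubule genes, the 2 highest in FPKM and the 1 with the largest difference among those called. The lists were lattice-binding, end-binding and severing proteins and kinases, and markers of neurons, immature neurons, astrocytes, oligodendrocytes, microglia, endothelium and other tissues. For likeness, the gene with the highest correlation was taken. The members, the lists and the contrast of mouse 3 were chosen with earlier results of these data known. One oligodendrocyte marker is not reported here. Map7d3 was not found under that symbol.

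Alternatives were a pseudocount of 0.1, minimum levels of 0 and 5 FPKM, TPM, removal of length or GC trends, a block for the library number, and each library left out in turn. Leaving out mouse 3 was added after the data were seen. Whether the library numbers pair the samples is not settled. Deviations in the 7 same-numbered pairs correlated at 0.00276 to 0.107, all positive but small, with 1 over 0.1. Differently numbered pairs ran from −0.135 to 0.0645.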

Additional observations from a re-analysis of the deposited data

Results flagged for a closer look

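Of 21 measures of the members, 4 had 1 library far from the other 7 by Dixon's ratio (critical value 0.526 for 8 libraries). Chance gives this in about 1 of 20 measures when the values are independent. These libraries share mice and some measures are complements of each other, so that rate does not hold here. The lowest Map6 value, 22.3 FPKM, came from library 2 of mouse 3, with the nearest other library at 26.1 FPKM. In the same library the Map2 transcript NM_001039934 made up 17.8% of the gene against at most 10.2% in the others, and NM_008632, its complement, made up 82.2% against at least 89.8%. The Map4 transcript NM_001205332 made up 32.1% in library 1 of mouse 3, and the nearest other library, the second of that mouse, had 30.1%. The authors' confidence bounds for NM_001039934 ran from 21.0 to 24.5 FPKM in library 2 of mouse 3, whereas the highest upper bound in mice 1 and 2 was 15.6 FPKM.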

How the results depend on the processing

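The F-test called 3310 genes, and 5493 with TPM, 1225 with no minimum level, 3 with mice 1 and 2 only (chosen after seeing the data) and 126 to 3860 with each library left out in turn (126 without library 2 of mouse 3, and 1635 to 1835 without 1 library of mouse 1). It called 4 members, and 2 with TPM, 2 with the length trend removed, 1 with no minimum level, 0 with mice 1 and 2 only and 0 to 5 with a library left out (0 without library 2 of mouse 3, and 2 without 1 library of mouse 1 or library 2 of mouse 2). The contrast of mouse 3 called 4921 genes and 4 members, 3123 and 2 with no minimum level, and 1492 to 5493 and 3 to 6 with a library left out (1492 and 3 without library 2 of mouse 3). The stathmin share of 67.1% became 71.7% with the highest transcript of each gene, and was 65.9% to 68.3% with a library left out. Transcript shares gave 0 calls, and 2 with mice 1 and 2 only, 2 with no minimum level and 0 to 5 with a library left out. With TPM, which shifted the median of all genes to −0.26, Map1a was at −0.28, Map2 at −0.17, Stmn2 at −0.26 and Stmn4 at −0.29, which relative to that median is −0.026, 0.083, −0.0023 and −0.031. The differences of Map1a, Stmn2 and Stmn4, not called with FPKM of all 8 libraries, also changed sign under other settings. Map1a was at −0.015 with the GC trend removed (−0.31 to 0.34 with a library left out). Stmn2 was at −0.10 with the length trend removed (−0.078 to 0.16 with a library left out). Stmn4 was at −0.033 with the GC trend removed and −0.33 with the length trend removed (−0.068 to 0.091 with a library left out). The ratio of NM_008633 of Map4 ranged from −0.38 to 0.070 with a library left out. Of 135 such values of member differences, 110 kept direction and call. The cause of the other changes was not tested. With the library number as a replicate block, which the labels do not show to pair the samples, the F-test called 2995 genes and 4 members and the contrast 4564 genes and 4 members. Fits without 1 library of mouse 3 hold that mouse as a single library, so their calls do not measure the spread within it. With no counts, counting error is unknown.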

Other observations

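For each member, the gene with the most similar pattern over the 8 libraries was found by Pearson's r of log2(FPKM + 1), a description in which the points share mice and depth. The nearest to Stmn1 was Ndufb10, a subunit of mitochondrial complex I (r = 0.998), whose transcript of 635 nucleotides is also short. The nearest to Map1b was Akap9, which encodes a large scaffold protein of the Golgi apparatus and centrosome (r = 0.997), with a transcript of 12105 nucleotides. The others, with transcript lengths in nucleotides, were Ank for Stmn3 (r = 0.997, 3496), Dpy19l4 for Map4 (r = 0.994, 2984) and Gpbp1l1 for Stmn2 (r = 0.991, 3519). Further matches were Mboat7 for Map6 (r = 0.980, 2880), Prrc2a for Map1a (r = 0.973, 6858), Tcp11l1 for Map2 (r = 0.954, 3512) and Ptges3 for Stmn4 (r = 0.948, 1954). Ank and Gpbp1l1 are longer than Stmn3 (1136) and Stmn2 (1904), so likeness did not always go with like length. Each r is the highest among all genes tested, so its height alone shows no link. None of the 9 is itself a member.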
